A study of Mus musculus with 3 samples.

Results

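Most animal miRNAs are cut from a long primary transcript by the nuclear enzyme Drosha, exported as a hairpin of the pre-miRNA, and cut again by Dicer into a duplex whose 5p and 3p arms can each be loaded into an Argonaute protein. A few hairpins bypass Drosha. The precursors of miR-320 and miR-484 are thought to start directly at a transcription start site and to carry a 5' cap. Dicer then sets the inner ends. No cap was measured in these data. Mirtrons are short introns that fold into a pre-miRNA once they are spliced and debranched, so the splice sites set both outer ends of the hairpin. Pre-miRNAs and mature miRNAs can also gain bases at the 3' end that the genome does not encode, and uridine added to mirtron precursors is one known form of this tailing.

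The 4 hairpins described here were Mir320 and Mir484, which are made without Drosha, and the mirtrons Mir877 and Mir1224. They were chosen by their route of processing, and all 4 were placed among the 200 hairpins that could be placed in these data out of 1174 searched. Small RNA was sequenced in 3 replicate libraries of MIN6, a mouse insulinoma line used as a model of the insulin-secreting beta cell, all grown in 25 mM glucose. The expected counts of the libraries, from reads of 14 to 41 nt, summed to 9269795, 10816006 and 10218743. These sums serve as the mapped reads of each library throughout, and they are somewhat above the mapped-read numbers that the study gives, for a reason not found here. Because all libraries shared 1 condition, the comparisons were made between arms within each library. The beta cell miRNA miR-375-3p was present at 365690 ± 19121 reads per 1000000 mapped reads (RPM; SD, n = 3), and miR-7-1-5p and miR-7-2-5p were at 226 ± 23.3 and 209 ± 21.6 RPM (SD, n = 3), with most of their reads shared between copies of the gene. The hairpins of Mir122 (liver), Mir142 (blood), and Mir1a-1, Mir1a-2, Mir133a-1, Mir133a-2 and Mir133b (muscle) could not be placed, so no level is given for them.

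RefSeq sequences (GRCm38.p6) matched 3 of the 4 hairpins, with 5 mature miRNAs that had 5 different seeds. The mature sequences are shown because each arm's ends are compared with them, with the seed (bases 2 to 8) in capitals.
miR-484: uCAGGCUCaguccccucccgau
miR-877-5p: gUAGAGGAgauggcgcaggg
miR-877-3p: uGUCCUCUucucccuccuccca
miR-1224-5p: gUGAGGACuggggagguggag
miR-1224-3p: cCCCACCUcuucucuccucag
The hairpins of the mirtrons are shown because splicing defines their ends, with the first and last bases of the intron in capitals.
Mir877 hairpin: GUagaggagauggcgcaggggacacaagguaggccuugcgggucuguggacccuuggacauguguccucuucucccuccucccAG
Mir1224 hairpin: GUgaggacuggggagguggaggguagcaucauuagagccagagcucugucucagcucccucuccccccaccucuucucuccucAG

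In the GRCm38 annotation, Mir877 (chr17:35960730-35960814, minus strand) filled an 85-base intron of Abcf1, and Mir1224 (chr16:20604452-20604536, plus strand) filled an 85-base intron of Vwa5b2, with 0 bases left on either side. Mir320 (chr14:70443510-70443591, plus strand) lay 63 bases upstream of the nearest annotated start of Polr3d, which is transcribed from the opposite strand. Mir484 (chr16:14159626-14159692, plus strand) lay 359 bases upstream of an annotated start of Marf1 on the opposite strand, and overlapped an exon of a longer Marf1 transcript. The reads themselves were aligned to mm9, where the main 5' starts were at position 70843364 of chromosome 14 for miR-320-3p, 14159723 of chromosome 16 for miR-484, 36097759 of chromosome 17 for miR-877-5p and 20604525 of chromosome 16 for miR-1224-5p.

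Mir320 and Mir484 gave far more reads than the mirtrons. miR-484 was the most abundant of these arms, at 1434, 1350 and 1143 RPM in replicates 1 to 3, or 1309 ± 150 RPM (SD, n = 3). miR-320-3p was at 956, 900 and 861 RPM, or 906 ± 48.0 RPM (SD, n = 3). The ranges of these arms did not overlap. miR-1224-5p was at 17.9, 18.8 and 18.6 RPM, and miR-877-5p at 14.8, 14.2 and 16.7 RPM. Their means of 18.4 ± 0.471 and 15.3 ± 1.31 RPM (SD, n = 3) stood apart in each library. miR-877-3p followed at 5.22 ± 0.922 RPM and miR-1224-3p at 2.04 ± 0.178 RPM (SD, n = 3). The levels of these 3p arms depended strongly on which reads were counted. With single-locus reads they were 3.86 and 0.694 RPM, and with exact alignments 1.64 and 0.134 RPM. Counting only exact alignments lowered miR-320-3p to 565 RPM, miR-877-5p to 7.40 RPM and miR-1224-5p to 10.4 RPM, since reads with any mismatch, terminal or internal, were left out. Among 343 arms ordered by level, miR-484 ranked 50 and miR-320-3p ranked 56, while miR-1224-5p ranked 270 and miR-877-5p ranked 280.

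The canonical arms nearest in level, by the absolute difference of log2 mean RPM over the 3 libraries, were miR-192-5p, miR-30b-5p and miR-210-3p for miR-484, and miR-130a-3p, miR-98-5p and miR-130b-3p for miR-320-3p. For miR-877-5p they were miR-191-3p, miR-200b-5p and miR-7b-3p, and for miR-1224-5p they were miR-16-2-3p, miR-342-5p and miR-29a-5p. The arms nearest to miR-484 lay between 1321 and 1335 RPM, within the SD of miR-484 itself.

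Nearly all reads of Mir320 and of Mir484 came from 1 arm, while both arms of each mirtron gave reads. Whether a cap on a 5p end affects its count in these libraries was not tested. On Mir484, 0 reads started on the 3p side, against 13296, 14600 and 11680 reads of miR-484, which is at least 3893-fold more in every library when 3 reads are taken as the floor. On Mir320, which had no RefSeq start, the 5p arm was taken around the most-read start on that side, at position 28. Starts within 5 nt of it held expected counts of 0, 1.31 and 1.33, with 0% from single-locus reads in replicates 2 and 3. The 3p arm held 8863, 9738 and 8794. Starts elsewhere in the hairpin, outside both arms, held 5.9, 16.7 and 6.87. The 3p share of Mir320 was 99.99% in replicate 2, with a 95% Wilson interval of 99.94% to 99.998%. These intervals and floors cover only the counting error within a library. The reads carry no molecular identifiers, so repeated copies of a molecule are counted as separate reads.

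**Figure D1:**
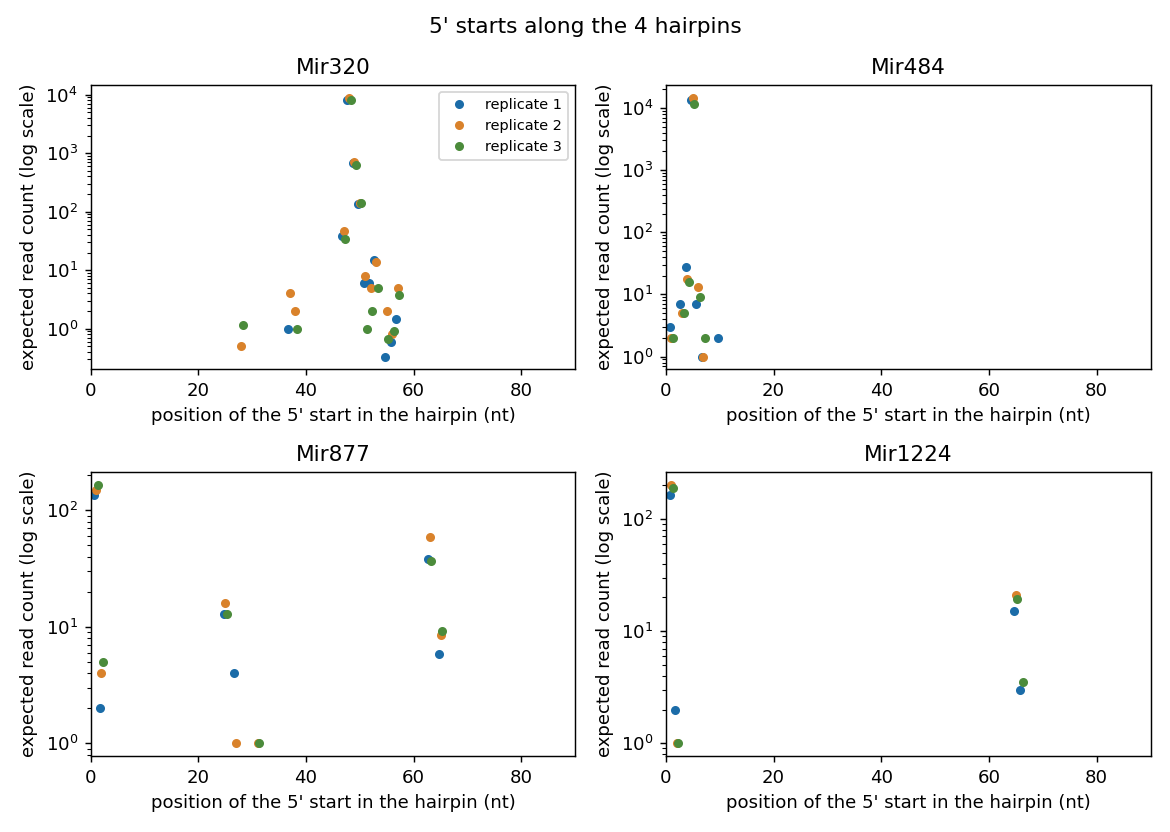
Expected read count (log axis) at each 5' start from the first base of the hairpin onward, by position in the hairpin, with 1 point for each library. Starts with at least 5 reads in every library lie at positions 47 to 50 and 53 of Mir320, 3 to 6 of Mir484, 1, 25, 63 and 65 of Mir877, and 1 and 65 of Mir1224.

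For Mir877 the 5p arm held 75.6%, 69.4% and 78.5% of the arm reads, with Wilson intervals that reached from 63.0% to 83.4% over the libraries. Its mean share was 74.5 ± 4.62% (SD, n = 3). The 5p arm of Mir1224 held 90.2%, 90.6% and 89.2%, or 90.02 ± 0.75% (SD, n = 3). The share on the more abundant arm was lower for Mir877 than for Mir1224 in each of the 3 libraries.

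The canonical arms used for comparison were the 275 arms, from 183 hairpins, with at least 100 reads in every library. Canonical here means any placed hairpin outside those described here and the other unusual hairpins named below. Whether Drosha cuts each of them was not tested. Copies of a gene that share reads were counted as separate arms, so the arms are not all independent. For example, miR-24-1-3p and miR-24-2-3p were both at 195 RPM, with 60.1% single-locus reads. Over the 183 arms that held most of their hairpin's reads, the median share was 98.2%. An average of 91.1% of these arms lay below Mir320 and 92.2% below Mir484. The mirtrons sat in the lower part of the distribution, with 14.9% of the arms below Mir877 and 26.96% below Mir1224. The position of Mir1224 depended on which reads were counted. Its 3p reads mostly ended in a mismatch, and many were divided among loci. With single-locus reads its 5p share was 96.3%. With exact alignments only, its 5p share rose to 98.8% and 58.6% of the canonical arms lay below it.

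The 5' starts were precise on 3 of the 4 main arms. miR-484 began at position 5 of its hairpin in 99.6%, 99.7% and 99.7% of its reads. miR-1224-5p began at the first base of the intron in 98.8%, 99.5% and 99.5%, and miR-877-5p in 98.5%, 97.4% and 97.1%. The remaining miR-877-5p reads began 1 base later, at 2.33 ± 0.769% (SD, n = 3). These starts were those of the RefSeq miRNAs.

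miR-320-3p was less uniform, with 89.9%, 90.6% and 90.7% of its reads at position 48. A further 7.39 ± 0.342% began at position 49 and 1.53 ± 0.0835% at position 50 (SD, n = 3), so that the seed of these reads was shifted by 1 or more bases. The shifted forms shared the most frequent 3' end of the main form. Their last matching base was hairpin position 69 in 65.7% of reads with the main start, in 57.8% of those starting at position 49 and in 37.5% of those starting at position 50.

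The median canonical arm had 98.3% of its reads at its main start. miR-320-3p was below that median by 7.85 ± 0.399 percentage points and miR-484 above it by 1.42 ± 0.0338 points (SD, n = 3), each in the same direction in 3 of 3 libraries. The exact two-sided sign-flip permutation test gave p = 0.25 for both, which is the smallest value that 3 libraries allow, so no such comparison could pass 0.05. On average 26.3% of canonical arms were less precise than miR-320-3p and 81.7% less precise than miR-484. miR-877-5p was above the median in 1 library and below it in the others. The median was higher for 5p arms alone, at 98.9%, than for 3p arms, at 96.6%. Against canonical arms of the same side, 31.7% were less precise than miR-320-3p and 72.8% less than miR-484. The corresponding share was 54.4% for miR-1224-5p and 33.8% for miR-877-5p.

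On the 3p side of the mirtrons Dicer sets the 5' end. miR-877-3p began at position 63 in 86.3%, 87.5% and 78.4% of its reads, and at position 65 in 15.04 ± 3.81% (SD, n = 3). miR-1224-3p began at position 65 in 83.3%, 100% and 84.8% of its 18, 21 and 23 reads. The main start held a smaller share on the 3p arm than on the 5p arm of Mir877 in each library. For Mir1224 this was so in only 2 of 3 libraries. With exact alignments all miR-1224-3p reads had the main start, but at 0.134 RPM they were too few to show a spread of starts. At these depths the difference between the 3p arms was within the spread of the libraries.

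The 3' ends were broader. At the main start of miR-484, 54.0 ± 1.09% (SD, n = 3) of reads had their last matching base after 22 nt, and at that of miR-320-3p the share at 22 nt was 65.7 ± 0.119%. miR-877-5p most often matched the genome for 22 nt, in 45.2%, 39.3% and 46.4% of reads, and the RefSeq end at 20 nt held 11.2 ± 1.90% (SD, n = 3). miR-1224-5p most often matched for 24 nt, in 38.4%, 40.0% and 39.2%, and its RefSeq end at 21 nt held 15.8 ± 0.837% (SD, n = 3). The median canonical arm had 71.5% of its reads at a single last matching base. Only 5.94% of canonical arms were less precise at the 3' end than miR-1224-5p, 11.0% less than miR-877-5p, 25.2% less than miR-484 and 39.9% less than miR-320-3p. The mirtron 3p arms went different ways. miR-877-3p had 49.7% of its reads at a single last matching base, with 19.2% of canonical arms less precise, while miR-1224-3p had 80.9% and was above the median in 2 of 3 libraries, with 97.5%, 41.5% and 69.8% of canonical arms less precise in replicates 1 to 3. With exact alignments only, the share was 0.379% for miR-1224-5p, and miR-320-3p moved to the other side of the median, with 57.2% of canonical arms less precise. With the last aligned base in place of the last matching base, the precision of miR-1224-5p fell from 39.2% to 21.6%. That of miR-877-3p fell from 49.7% to 30.4%, while with exact alignments it was 55.4%.

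An added base that equals the next base of the genome is counted as a match, which limits what these ends can show. The next base is U after 21 nt of miR-484 and after 23 nt of miR-1224-5p, so the forms of 22 and 24 nt can include a shorter form with an added U. It is A after 21 nt of miR-320-3p and of miR-877-5p, so the 22-nt forms of these arms can likewise include a 21-nt form with an added A.

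**Figure D2:**
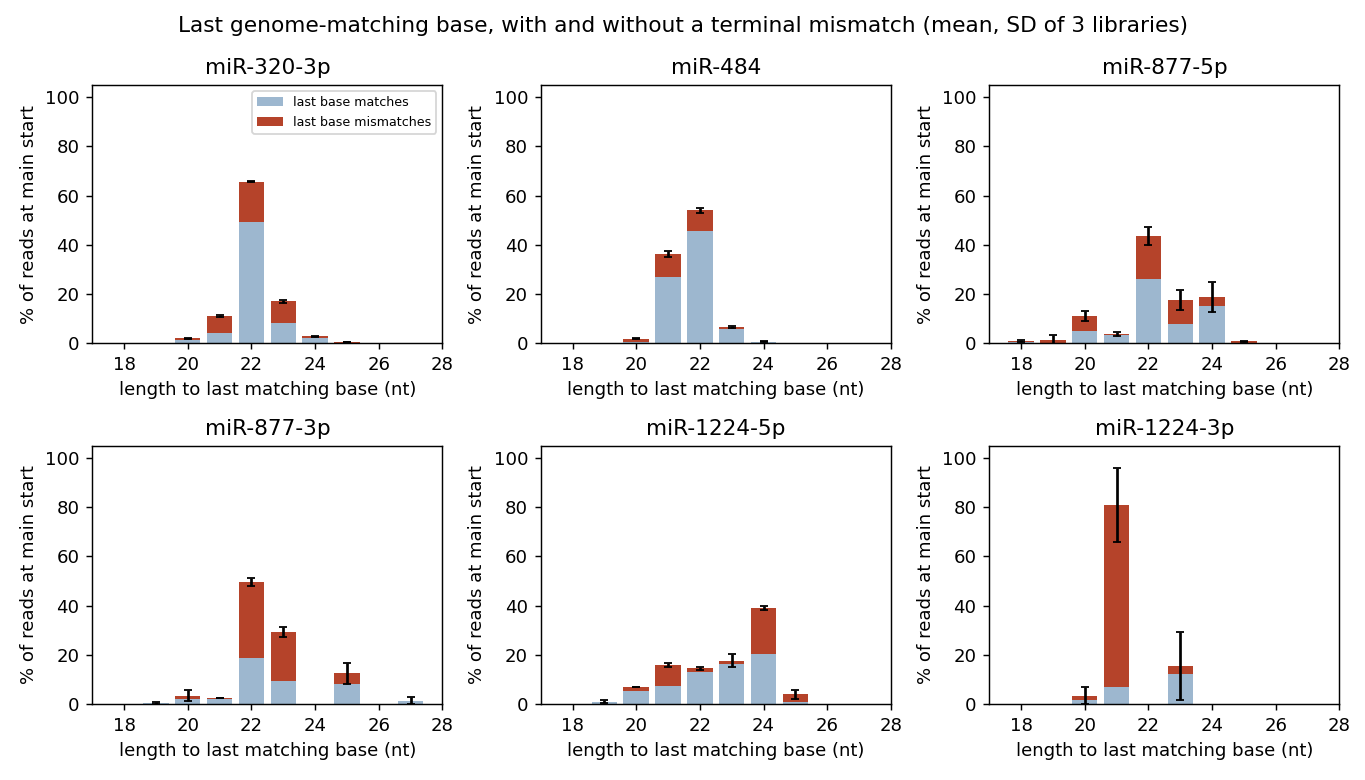
Share of the reads at each arm's main 5' start by length up to the last base that matches the genome, split by whether the read ends in a mismatch (bars are means and error bars the SD of 3 libraries). miR-320-3p and miR-484 have their highest bar at 22 nt, and the highest bar of miR-1224-3p, at 21 nt, is mostly of reads with a terminal mismatch.

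Reads whose last base did not match the genome were frequent on every arm. The share at the main start was 34.8%, 33.3% and 34.1% for miR-320-3p, and 21.2%, 20.01% and 19.7% for miR-484. It was 44.4%, 38.0% and 39.2% for miR-877-5p and 31.4%, 35.7% and 38.7% for miR-1224-5p. The mirtron 3p arms were higher, at 56.8 ± 2.47% for miR-877-3p and 79.3 ± 9.14% for miR-1224-3p (SD, n = 3). The 3p arm exceeded the 5p arm of the same mirtron in each of the 3 libraries.

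The median canonical arm had 8.02% of such reads, with 5.11% for 5p arms and 13.8% for 3p arms. Every one of the 6 arms lay above the median canonical arm in 3 of 3 libraries, by 12.3 ± 0.695 percentage points for miR-484, 26.1 ± 0.546 for miR-320-3p, 27.2 ± 3.71 for miR-1224-5p and 32.5 ± 3.30 for miR-877-5p (SD, n = 3). For each of them the exact two-sided sign-flip permutation test gave p = 0.25. Against canonical arms of the same side, 96.3% lay below miR-877-5p, 95.6% below miR-1224-5p, 94.2% below miR-877-3p and 98.6% below miR-1224-3p. The corresponding share was 86.8% for miR-484 and 84.2% for miR-320-3p. Arms of canonical hairpins with still higher shares exist. Beside miR-320-3p, the nearest arms in level ranged from 4.83% for miR-98-5p to 50.5% for miR-130b-3p. The range was 1.70% to 27.5% beside miR-484, 6.33% to 9.72% beside miR-877-5p and 5.85% to 27.9% beside miR-1224-5p.

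**Figure D3:**
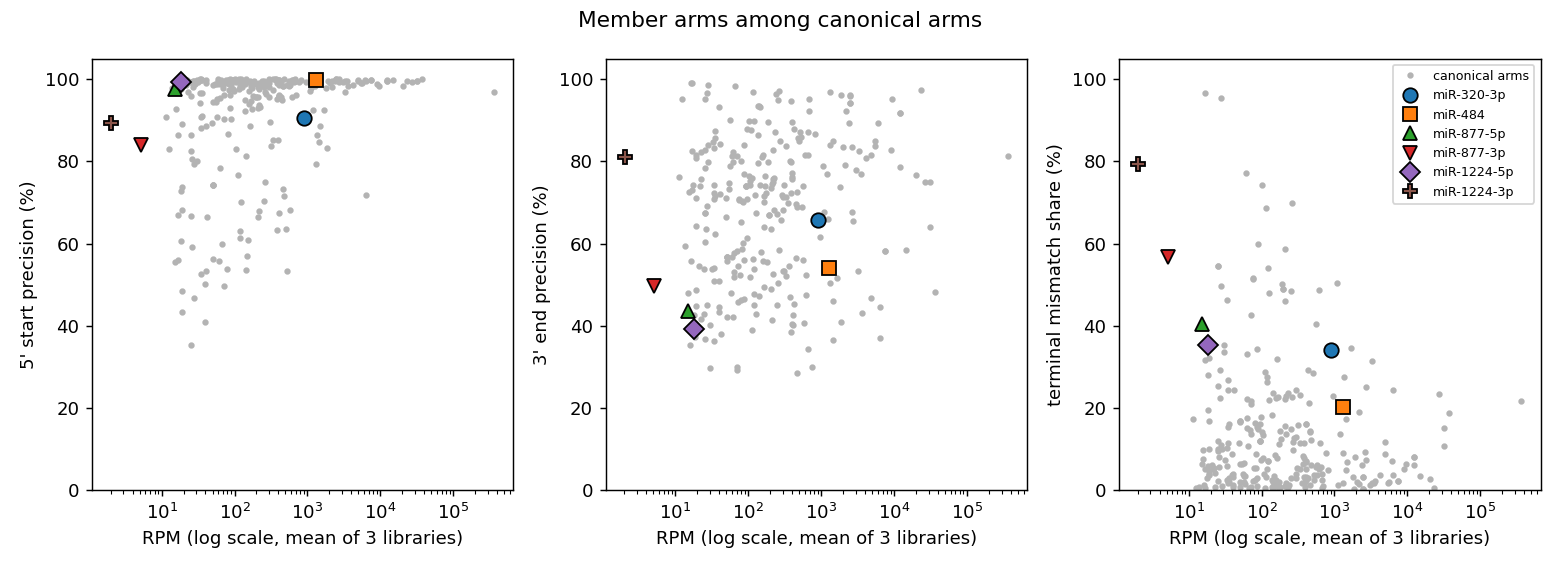
5' start precision, 3' end precision and terminal mismatch share against mean RPM (log axis) for 275 canonical arms (grey) and the 6 arms of the 4 hairpins. In the right panel the 4 mirtron arms sit between 35.2% and 79.3%, while the median canonical arm is at 8.02%.

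The kinds of added base that can be seen depend on the next base of the genome. For miR-320-3p, tails of U alone made up 91.4 ± 0.448% of the terminal mismatches, with 1 U on 23.8% of reads, 2 on 6.10% and 3 on 1.05%. Tails of A alone were 0.212% of its mismatches, but the next genomic base after its ends of 21 to 25 nt is A, so that an added A would be counted as a match there. For miR-484, U alone made up 46.5 ± 2.23%, A alone 24.5 ± 1.55%, and A followed by U 18.1 ± 1.34% (SD, n = 3). A and A-then-U tails were seen on 13.6% and 10.1% of the 21-nt form of miR-484, and U on 14.9% of its 22-nt form. The next genomic base is U after the 21-nt form and A after the 22-nt form, so that U on the first and A on the second would count as matches, and these forms cannot be compared in their added base. The median canonical arm, among 244 with enough tailed reads, had U alone in 68.7% and A alone in 15.8% of its terminal mismatches.

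The share of reads with a terminal mismatch was also taken for each 3' end that held at least 10% of the reads at the main start of the 4 main arms. It leaves out added bases that match the genome, such as A after 23 nt of miR-877-5p, U after 23 nt and A after 24 nt of miR-1224-5p, and U after 21 nt and A after 22 nt of miR-484. Of the miR-320-3p reads matching for 21, 22 and 23 nt, 62.4 ± 1.48%, 24.7 ± 1.15% and 52.3 ± 0.260% ended in a mismatch (SD, n = 3). These shares did not overlap over the libraries. miR-484 had 25.7 ± 1.16% at 21 nt and 15.5 ± 0.870% at 22 nt (SD, n = 3). miR-877-5p had 52.0 ± 14.9% at 20 nt, 40.2 ± 1.87% at 22 nt, 55.4 ± 4.12% at 23 nt and 20.3 ± 3.22% at 24 nt (SD, n = 3). miR-1224-5p had 53.0 ± 10.4% at 21 nt, 9.80 ± 1.02% at 22 nt, 9.20 ± 2.72% at 23 nt and 48.1 ± 1.12% at 24 nt (SD, n = 3). The shares at 22 and 23 nt lay below those at 21 and 24 nt in each library.

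**Figure D4:**
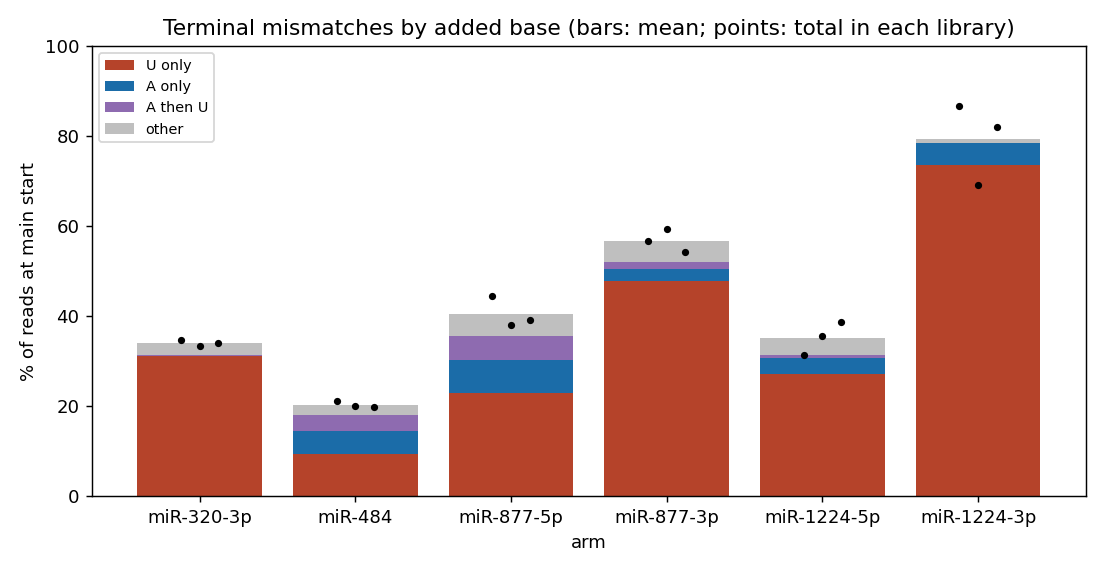
Share of the reads at each arm's main 5' start that end in a mismatch, by added base (stacked bars are means of 3 libraries, points the total in each library). U alone is the largest class on all 6 arms, and A followed by U was seen most often on miR-877-5p (5.42%) and miR-484 (3.68%). It cannot be seen at ends where the next genomic base is A, as after 21 to 25 nt of miR-320-3p.

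At the mirtrons' 3' splice site the added bases could be set against the next exon. Of 159 expected reads of miR-877-3p over the 3 libraries, 77.7 ran past the last base of the intron, and of 62 reads of miR-1224-3p, 56.5 did. The first base past the intron differed from the first base of the exon in all of these reads, and matched it in 0. It was a U in 71.6% for Mir877 and in 94.7% for Mir1224. Reads past the splice site made up 47.6%, 51.1% and 46.7% of miR-877-3p and 86.1%, 90.5% and 95.7% of miR-1224-3p. Some of them regained a match at the following base, and for that reason the share with a mismatch anywhere in the last 3 bases was higher than the terminal share, at 66.9% for miR-877-3p and 92.3% for miR-1224-3p. A part of these short 3p reads was divided among several loci. Only 72.6% of miR-877-3p and 33.7% of miR-1224-3p had a whole-number count, as a read with a single locus has.

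Mir877 also gave reads of the segment between its arms. A read of 40 nt from position 25 to 64 of the hairpin was counted 13, 16 and 13 times, and 41 of these 42 reads matched exactly.
Mir877 segment between the arms: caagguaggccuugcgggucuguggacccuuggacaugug
Its first base follows the last base of the 24-nt form of miR-877-5p, and its last base precedes the miR-877-3p start at position 65, the less frequent of the 3p starts. Reads starting between the arms made up 7.99 ± 1.00% of the reads of Mir877 (SD, n = 3). The median of 181 canonical hairpins was 0.0373%, and 98.3% of them lay below Mir877. Those above it were Mir6236 at 24.4%, Mir374b at 10.4% and Mir29b-1 at 8.52%. The canonical intervals were mostly shorter, with a median of 16 nt between the most frequent inner ends against 40 nt in Mir877, and no read under 14 nt was available. Among the 155 canonical hairpins with an interval of at least 14 nt, a comparison chosen after seeing the data, the median was 0.0404% and 99.4% lay below Mir877. The canonical hairpins with the longest intervals were Mir328 (40 nt), with 0.180 ± 0.0768%, and Mir98 (36 nt), with 0.0233 ± 0.00234% (SD, n = 3). Of the other hairpins that fill an intron, Mir3102 had 15.9 ± 2.30% and Mir1981 0.0908 ± 0.157% (SD, n = 3). Most of these Mir3102 reads belonged to a further RefSeq miRNA, miR-3102-3p.2-3p, which starts at position 60 of the hairpin. On Mir1224, where the same interval also spans 40 nt, 0 reads started between the arms, beside 184, 225 and 213 arm reads, which allows a share of up to 1.63% in replicate 1.

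Internal mismatches, from base 2 to 18, were counted at the main start with positions from 1 at the 5' end of the miRNA. The most frequent substitution of miR-484 was A9C, in 3.78 ± 0.199% of reads, and that of miR-877-5p was A10C, in 9.93 ± 1.94% (SD, n = 3). A-to-C changes made up 62.0% of the internal mismatches of miR-484 and 83.9% of those of miR-877-5p, while the median canonical arm had 84.6%.

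Other hairpins with an unusual route gave a point of reference. Mir1981 and Mir3102, which also fill short introns, had 5p and 3p arms at 28.9 ± 1.85 and 45.2 ± 4.66 RPM for Mir1981 and a 3p arm at 56.9 ± 10.7 RPM for Mir3102 (SD, n = 3). Their arms ended in a mismatch in 22.8% for miR-1981-5p, 23.4% for miR-1981-3p and 55.5% for miR-3102-3p. The 5p arm of Mir3102, with its main start at position 23, was at only 1.89 ± 0.585 RPM (SD, n = 3) and had 60.4%. miR-1839-5p, from a hairpin resembling a small nucleolar RNA, was at 167 ± 17.1 RPM (SD, n = 3) with 5.25% of terminal mismatches. Mir702 and Mir451a, the latter cut by Ago2 in place of Dicer, could not be placed.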

How the data were processed

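The authors trimmed adaptors with cutadapt, aligned exact reads with Bowtie to mm9, and then aligned the remaining reads with mismatches near those loci. The deposited values are expected counts, in which a read with several equally good loci is divided among them, and they are not scaled by depth. Exact alignments end 1 base early and were corrected. A whole-number count was taken as a single locus. Hairpins were placed where no base recorded as a mismatch equalled the hairpin's base, at 20 bits or more. Mir320 and Mir484 reached 50.8 and 50.4 bits, and the study's tabulated values matched 1 start of each within 0.2%. Mir1224 reached only 15.9 bits and was kept because these values matched 1 start, at its first base. At 20 bits 0 reversed hairpins were placed, and 10 hairpins with a second position were left out of the canonical arms. Arms took starts within 5 nt of the RefSeq start, or of the most-read start where none is listed. The tables were made in Python 3.11.15 (pandas 2.3.3, scipy 1.17.1, numpy 2.4.6) and the plots in matplotlib 3.10.9. The steps were tested on simulated data. Named arms were all arms of the 4 hairpins, the other unusual hairpins, and the 3 canonical arms nearest in level to each main arm. miR-375 and miR-7 are beta cell markers. The members and lists were chosen with earlier results of these data known. The study describes the libraries as biological replicates, and a p-value measures the spread between them.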

Additional observations from a re-analysis of the deposited data

How the results depend on the processing

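Leaving out 1 of 3 replicates cannot move a mean by 1 SD, so that alternative says little about stability. Limiting reads to 16 to 27 nt was tried for level, 5' start precision and terminal mismatch share, and moved each by less than 1 SD. Per 1000000 reads at placed hairpins, the levels were 1171 for miR-320-3p, 1693 for miR-484, 19.7 for miR-877-5p and 23.8 for miR-1224-5p. With exact alignments they were 565, 924, 7.40 and 10.4 RPM, the 5p share was 81.8% for Mir877 and 98.8% for Mir1224, the 5' start precision of miR-320-3p was 90.95%, and the 3' end precision was 76.3% for miR-320-3p, 57.4% for miR-484 and 30.1% for miR-1224-5p. With single-locus reads, miR-1224-5p was at 17.9 RPM, and the arm share was 100% for miR-320-3p, 79.96% for miR-877-5p and 96.3% for miR-1224-5p. Taking the last aligned base gave a 3' end precision of 55.2% for miR-320-3p, 51.2% for miR-484, 30.8% for miR-877-5p and 21.6% for miR-1224-5p. A mismatch anywhere in the last 3 bases was found in 35.9%, 24.7% and 39.3% of miR-320-3p, miR-484 and miR-1224-5p.

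The share of canonical arms below a member depended on the arms compared. With 1000 reads in every library it was 17.8% (5' start), 33.97% (3' end) and 91.3% (terminal mismatch) for miR-320-3p, 91.9% (terminal mismatch) for miR-877-5p, and 91.3% (terminal mismatch) and 20.2% (arm bias) for miR-1224-5p. With 95% single-locus reads it was 29.1%, 42.5% and 90.3% for the same measures of miR-320-3p, and 83.6% (5' start), 28.2% (3' end), 73.97% (terminal mismatch) and 94.4% (arm bias) for miR-484. It was then 92.2% (terminal mismatch) for miR-877-5p and 31.0% (arm bias) for miR-1224-5p. With exact alignments it was 24.7% (5' start) and 57.2% (3' end) for miR-320-3p, 79.2% (5' start) for miR-484, 57.6% (5' start) and 19.5% (arm bias) for miR-877-5p, and 0.379% (3' end) and 58.6% (arm bias) for miR-1224-5p. Exact alignments hold no terminal mismatch, so that share has no value there. The cause of the other shifts was not tested. The 18 to 68 reads of the mirtron 3p arms limit their precision, and at most 3 mismatches at the 3' end of a read were sought upstream.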
